A study of Mus musculus with 8 samples.

Results

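The erythroid gene set comprised 9 genes, *Tfrc*, *Epor*, *Gata1*, *Klf1*, *Alas2*, *Slc4a1*, *Hbb-b1*, *Hbb-b2* and *Hba-a1*, of the 15880 genes in the deposited table. They were chosen by name as genes of red cell formation, and each symbol matched 1 Ensembl identifier, so that no choice between identifiers was needed. RNA-seq had been done on 4 populations of cells sorted from newborn bone marrow as CD45- CD31- Ter119-, and the question was which of these populations carried erythroid transcripts and of which maturation stages, although Ter119, an antigen of late erythroid cells, had been gated out. The populations were GFP- Pdgfrα-, GFP+ Pdgfrα-, GFP- Pdgfrα+ and GFP+ Pdgfrα+, with 2 libraries each and 8 in all. All came from heterozygous *Nes-Gfp* pups of the C57BL/6 strain at P1, in which nestin regulatory elements drive GFP. Each library held cells from collagenase-digested, crushed bones of a pool of 3 pups. Between 3221217 and 5302762 reads per library fell on genes, with a median of 3604130. Values are the deposited normalized signal, which is the reads of a gene plus 0.5, per 1000000 of an effective library size.

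Red cells form from stem and progenitor cells that express *Kit* and *Gata2*, through erythroid progenitors that depend on erythropoietin, to erythroblasts that divide a few more times while they fill with hemoglobin. Gata1 and Klf1 switch on the erythroid genes, the transferrin receptor supplies iron, Alas2 starts heme synthesis, and the globins and membrane proteins such as band 3 accumulate towards the end. Ter119 appears on the cell surface late in this sequence, so that erythroid progenitors and the earliest erythroblasts carry little of it.

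All 9 genes were high in GFP- Pdgfrα- cells and low in the other 3 populations. In GFP- Pdgfrα- cells the mean signal was 70.6 ± 1.36 for *Gata1*, for example, against at most 0.997 ± 0.136 elsewhere, and 5991 ± 2303 for *Hbb-b1* against at most 41.7 ± 13.7 (SD, n = 2). For each gene both GFP- Pdgfrα- libraries lay above all other 6 libraries, a pattern met by 26.8% of the 15880 genes. The stated filter on low counts asks for more than 2 counts per 1000000 in at least 2 libraries. Elsewhere *Gata1* was at most 1.09, and *Klf1* was at 2.55 in 1 library and at most 1.24 in the rest. Both could pass this filter only through GFP- Pdgfrα- libraries. The counts of 9 genes here and below are thus in part set by it. In these bulk samples, fewer erythroid cells and less RNA per cell cannot be told apart.

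The receptors were highest in GFP- Pdgfrα- libraries and next in GFP+ Pdgfrα- libraries, and were not called as different between the Pdgfrα+ populations. *Tfrc*, the transferrin receptor through which erythroid cells take up iron, had a signal of 1639 and 1697 in GFP- Pdgfrα- libraries, 53.1 and 50.0 in GFP+ Pdgfrα-, 30.4 and 28.1 in GFP- Pdgfrα+, and 22.2 and 19.7 in GFP+ Pdgfrα+ libraries, given here and below as replicate 1 and replicate 2. For *Tfrc* the GFP- Pdgfrα- mean was 32.4-fold above the next, that of GFP+ Pdgfrα- cells. *Epor*, the erythropoietin receptor, was at 110.4 and 95.6 in GFP- Pdgfrα-, 6.92 and 5.79 in GFP+ Pdgfrα-, 0.126 and 0.446 in GFP- Pdgfrα+, and 1.24 and 0.719 in GFP+ Pdgfrα+ libraries. There were 50 *Epor* reads in the 2 GFP+ Pdgfrα- libraries, against 1 and 6 in the 2 libraries of GFP- Pdgfrα+ and of GFP+ Pdgfrα+ cells. On so few reads these last 2 populations were not called as different (adjusted p in limma 0.406). *Tfrc* (ENSMUSG00000022797) lies on the plus strand at chr16:32609006-32632880 with 19 exons, and *Epor* (ENSMUSG00000006235) on the minus strand at chr9:21763343-21768020 with 8 exons in NCBIM37.

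The reads of the transcription factors were nearly confined to GFP- Pdgfrα- libraries. *Gata1*, the zinc finger factor that drives erythroid and megakaryocytic differentiation, was at 69.7 and 71.6 in GFP- Pdgfrα-, 1.09 and 0.900 in GFP+ Pdgfrα-, 0.126 and 0.446 in GFP- Pdgfrα+, and 0.138 and 0.144 in GFP+ Pdgfrα+ libraries. These signals stand for 545, 7, 1 and 0 reads over the 2 libraries of each population, and no other library held more than 4 reads. *Klf1*, which activates the adult β-globin gene and many other erythroid genes, was at 149.5 and 169 in GFP- Pdgfrα-, 2.55 and 0.900 in GFP+ Pdgfrα-, 1.13 and 0.742 in GFP- Pdgfrα+, and 1.24 and 0.431 in GFP+ Pdgfrα+ libraries. The 3 lower populations overlapped for *Klf1* and held 13, 6 and 5 reads. *Gata1* (ENSMUSG00000031162) lies at chrX:7536386-7555197 on the minus strand with 6 exons, and *Klf1* (ENSMUSG00000054191) at chr8:87425827-87429194 on the plus strand with 3 exons.

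Heme synthesis and the red cell membrane were represented by *Alas2* and *Slc4a1*. *Alas2*, the erythroid enzyme of the first step of heme synthesis, was at 292 and 390.2 in GFP- Pdgfrα-, 4.98 and 5.79 in GFP+ Pdgfrα-, 5.42 and 1.63 in GFP- Pdgfrα+, and 2.07 and 3.02 in GFP+ Pdgfrα+ libraries. The GFP- Pdgfrα- libraries stood apart, and those of GFP- Pdgfrα+ cells overlapped with both other populations. *Slc4a1*, which encodes the anion exchanger band 3, was at 2407 and 2989.8 in GFP- Pdgfrα-, 24.2 and 12.5 in GFP+ Pdgfrα-, 5.42 and 5.49 in GFP- Pdgfrα+, and 5.66 and 9.06 in GFP+ Pdgfrα+ libraries. Here GFP+ Pdgfrα- cells formed a separate second level, above both Pdgfrα+ populations. *Alas2* (ENSMUSG00000025270) lies at chrX:146981918-147005181 on the plus strand with 11 exons and overlaps *Apex2*. It shared 0 of 2034 distinct 50-base stretches with other coding transcripts. *Slc4a1* (ENSMUSG00000006574) lies at chr11:102210138-102227517 on the minus strand with 20 exons.

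The adult globin genes were high in both GFP- Pdgfrα- libraries, with a wide spread between the replicates. *Hbb-b1*, an adult β-globin gene, was at 4362 and 7619 in GFP- Pdgfrα-, 51.4 and 32.0 in GFP+ Pdgfrα-, 19.0 and 12.9 in GFP- Pdgfrα+, and 15.3 and 14.2 in GFP+ Pdgfrα+ libraries. The GFP- Pdgfrα- libraries were highest, those of GFP+ Pdgfrα- cells came next, and the Pdgfrα+ populations overlapped. *Hbb-b2*, its neighbour and near copy, was at 2836 and 3768 in GFP- Pdgfrα-, 40.2 and 10.7 in GFP+ Pdgfrα-, 9.71 and 2.52 in GFP- Pdgfrα+, and 9.53 and 4.17 in GFP+ Pdgfrα+ libraries. *Hba-a1*, an adult α-globin gene, was at 1516 and 3524 in GFP- Pdgfrα-, 20.0 and 9.65 in GFP+ Pdgfrα-, 9.45 and 9.95 in GFP- Pdgfrα+, and 5.11 and 9.63 in GFP+ Pdgfrα+ libraries. For *Hba-a1* the GFP- Pdgfrα+ libraries overlapped with those of GFP+ Pdgfrα- and GFP+ Pdgfrα+ cells, whereas for *Hbb-b2* the GFP+ Pdgfrα- libraries lay just above the others. *Hbb-b1* (ENSMUSG00000052305) and *Hbb-b2* (ENSMUSG00000073940) lie on the minus strand at chr7:110975048-110976610 and chr7:110961038-110962510, and *Hba-a1* (ENSMUSG00000069919) on the plus strand at chr11:32183511-32184465, with 3 exons each. Adult globin genes, *Hba-a2* included, took 0.896% and 1.42% of the reads in the GFP- Pdgfrα- libraries and between 0.00283% and 0.0145% in the other 6.

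**Figure D1:**
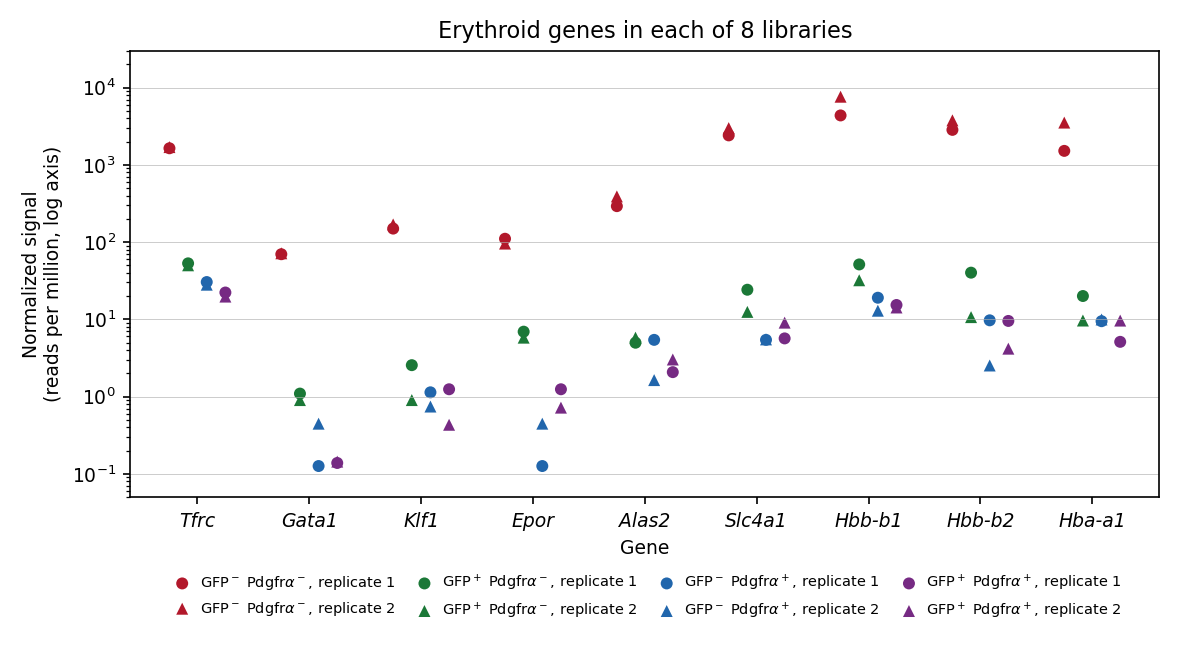
The normalized signal of the 9 erythroid genes (reads per 1000000, log axis) in each of the 8 libraries, coloured by population, with circles for replicate 1 and triangles for replicate 2. For each gene the 2 GFP- Pdgfrα- libraries lie above the other 6. The difference in signal, as distinct from the ratio that a log axis shows, was largest for *Hbb-b1* (4362 and 7619 against at most 51.4).

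Compared per kb of transcript, which allows levels of different genes to be set side by side, the globin genes led in GFP- Pdgfrα- cells. The mean signal per kb was 7700.2 for *Hbb-b1*, 4697 for *Hbb-b2* and 3605 for *Hba-a1*, followed by 594 for *Slc4a1*, 341 for *Tfrc*, 167 for *Alas2*, 104 for *Klf1*, 56.3 for *Epor* and 37.1 for *Gata1*. *Hbb-b2* (4034 and 5359.9 per kb) and *Hba-a1* (2169 and 5041 per kb) overlapped, as neighbours in that order, and the other neighbours did not overlap over the 2 libraries. The same scale gave another order in GFP+ Pdgfrα- cells, where *Hbb-b1* (53.6), *Hbb-b2* (36.2) and *Hba-a1* (21.2) were followed by *Tfrc* (10.5), *Slc4a1* (4.03), *Epor* (3.47), *Alas2* (2.64), *Klf1* (1.12) and *Gata1* (0.524). In that order *Hbb-b1* with *Hbb-b2*, *Hbb-b2* with *Hba-a1*, and *Slc4a1* with *Epor* and with *Alas2* overlapped over the 2 libraries.

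In the test of GFP- Pdgfrα- against each other population, the 9 genes were higher in all 3 comparisons. Where both means rest on more than 3 reads, the ratios ran from 16.2-fold for *Epor* over GFP+ Pdgfrα- cells to 539.9-fold for *Hbb-b2* over GFP- Pdgfrα+ cells. The latter depends strongly on single libraries, since *Hbb-b2* was at 9.71 and 2.52 in GFP- Pdgfrα+ libraries. Genes were called at an adjusted p of at most 0.05 in limma, fitted over all 8 libraries to log2(signal + 1), a scale on which the change of genes with few reads is understated. Over GFP- Pdgfrα+ cells all 9 were called higher, against 26.8% of all genes, with log2 fold changes from 5.79 for *Tfrc* to 9.06 for *Hbb-b2*, a median of 6.37 against −0.17 for all genes, and adjusted p in limma from 4.95e-11 to 7.56e-08. Over GFP+ Pdgfrα- cells all 9 were called higher, against 23.6% of all genes, with log2 fold changes from 3.82 for *Epor* to 7.27 for *Hba-a1*, a median of 5.95 against −0.15, and adjusted p in limma from 2.64e-10 to 2.67e-06. Over GFP+ Pdgfrα+ cells all 9 were called higher, against 26.4% of all genes, with log2 fold changes from 5.72 for *Epor* to 8.79 for *Hbb-b2*. The median was 6.59 (7.38 with *Gata1* set to a floor of 3 reads) against −0.20, and adjusted p in limma ran from 5.41e-11 to 7.55e-08. The 3 comparisons share the GFP- Pdgfrα- libraries, and 19.2% of all genes were called higher in all 3. For *Gata1* and *Klf1* these calls are in part set by the filter on low counts.

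On the linear scale, *Slc4a1* and the β-globin genes had the steepest contrasts with the Pdgfrα+ populations among the genes with more than 3 reads in each population. *Slc4a1* was 494-fold higher than in GFP- Pdgfrα+ cells, 147-fold higher than in GFP+ Pdgfrα- cells and 367-fold higher than in GFP+ Pdgfrα+ cells. For *Hbb-b1* these ratios of means were 375, 144 and 405, for *Hbb-b2* 539.9, 129.8 and 482, and for *Hba-a1* 259.8, 169.8 and 342. *Alas2* (96.7, 63.4 and 134) and *Klf1* (169.8, 92.4 and 190.4) lay between the globin genes and *Tfrc* (57.1, 32.4 and 79.6). *Gata1* was 70.9-fold higher than in GFP+ Pdgfrα- cells and 518-fold higher than in GFP- Pdgfrα+ cells (95% counting interval 92.5 to 20479, on 1 read). In GFP+ Pdgfrα+ cells it had 0 reads, and a floor of 3 reads over the 2 libraries gave 167-fold. The 95% counting interval there reaches 0.739% of the GFP- Pdgfrα- level. *Epor* was 105-fold higher than in GFP+ Pdgfrα+ cells and 749-fold higher than in GFP- Pdgfrα+ cells (counting interval 134 to 29631, on 1 read). Intervals and floors here and below cover counting error only, since amplified reads are not independent molecules. With 2 libraries against 2, an exact permutation test of 1 gene cannot give a p below 0.333, so the calls rest on limma, which draws on the spread of all genes.

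GFP+ and GFP- cells were called as different in these genes only in the absence of Pdgfrα. Among Pdgfrα+ cells, 0 of the 9 genes were called in limma between GFP+ and GFP- cells, where 5.35% of all genes were called in either direction. 1 of the 9 had an unadjusted p under 0.05 in limma, and voom, edgeR and DESeq2 called 0 as well. The difference itself, the GFP effect in Pdgfrα+ cells minus that in Pdgfrα- cells, was called above 0 in limma for all 9 genes, against 19.1% of all genes. It ranged from 4.44 for *Epor* (adjusted p in limma 2.56e-05) to 7.53 for *Slc4a1* (adjusted p in limma 7.27e-08) on the log2 scale, with a median of 5.84 against −0.16 for all genes. For *Gata1*, at 7, 1 and 0 reads in the 3 lower populations, this call was lost with edgeR (adjusted p 0.934) and DESeq2 (adjusted p 0.0542), which call the other 8.

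GFP+ Pdgfrα- cells held a small second level of erythroid transcripts, in which *Epor* and *Tfrc* had the highest shares of their GFP- Pdgfrα- level among the 9. *Epor* was at 6.11% of its GFP- Pdgfrα- level (counting interval 4.50% to 8.14%) and *Tfrc* at 3.08% (2.79% to 3.40%). *Alas2* was at 1.52%, *Gata1* at 1.24%, *Klf1* at 1.01%, *Hbb-b2* at 0.769%, *Hbb-b1* at 0.680%, *Slc4a1* at 0.673% and *Hba-a1* at 0.568% (0.470% to 0.680%). These shares pool 2 libraries that differed. By signal in single libraries, *Klf1* was at 1.60% and 0.565%, *Hbb-b2* at 1.22% and 0.323%, and *Hbb-b1* at 0.857% and 0.535%. *Slc4a1* was at 0.895% and 0.462%, *Hba-a1* at 0.795% and 0.383%, *Epor* at 6.72% and 5.62%, and *Tfrc* at 3.18% and 3.00%. The shares of the globin genes and *Slc4a1* thus lay below the intervals of *Epor* and *Tfrc*, and those of *Gata1* and *Klf1*, on 7 and 13 reads, overlapped with the globin genes. Among genes of progenitor and cycling cells, *Kit* was at 3.68%, *Myb* at 2.94% and *Mki67* at 8.78% of their GFP- Pdgfrα- level, and the globin gene *Hba-a2* was at 0.600%. Early and late genes were not ordered by this share throughout, since the early *Gata2* was at 0.121 and 0.386 in GFP+ Pdgfrα- against 18.5 and 19.2 in GFP- Pdgfrα- libraries, and the membrane gene *Ank1* at 196 and 247 against 767 and 819. In GFP- Pdgfrα+ cells the highest share among the 9 was that of *Tfrc*, at 1.75%, and *Epor* was at 0.133% on 1 read (0.00337% to 0.746%). In GFP+ Pdgfrα+ cells *Tfrc* again led among the 9, and *Epor* was at 0.827% on 6 reads (0.303% to 1.81%). Whether *Epor*, *Tfrc* and *Mki67* transcripts in GFP+ Pdgfrα- cells came from erythroid cells was not tested.

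**Figure D2:**
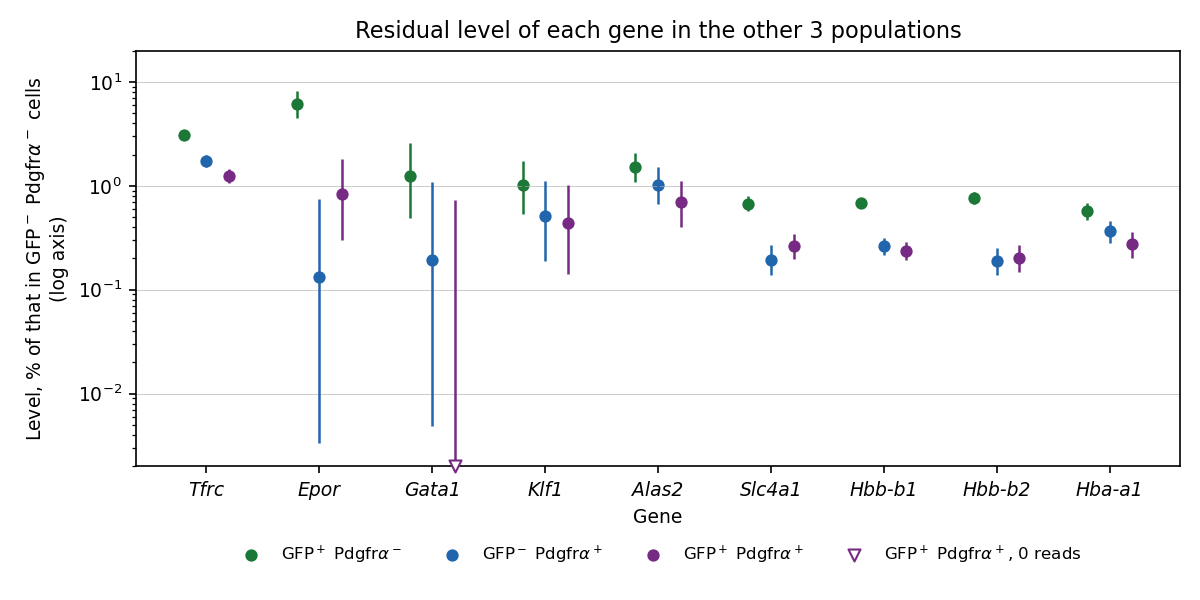
The level of each erythroid gene in the other 3 populations as a percentage of its level in GFP- Pdgfrα- cells (log axis), from reads summed over 2 libraries, with lines for the 95% counting interval and an open triangle for *Gata1* at 0 reads in GFP+ Pdgfrα+ cells. *Epor* and *Tfrc* in GFP+ Pdgfrα- cells, at 6.11% and 3.08%, lie above *Slc4a1* and the globin genes, which are between 0.568% and 0.769%. Single libraries of GFP+ Pdgfrα- cells spread wider by signal, with *Hbb-b2* at 1.22% in replicate 1 and 0.323% in replicate 2.

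Set against Pdgfrα+ cells, this second level passed the test for some of the genes. *Gata1*, *Klf1*, *Alas2* and *Hba-a1* were called over neither Pdgfrα+ population (adjusted p in limma from 0.133 to 0.504). Over GFP- Pdgfrα+ cells, 5 of the 9 were called higher in GFP+ Pdgfrα- cells, against 13.5% of all genes. They were *Epor* (log2 fold change 2.52, adjusted p in limma 0.000272), *Tfrc* (0.80, 0.00131), *Slc4a1* (1.51, 0.00193), *Hbb-b1* (1.32, 0.00369) and *Hbb-b2* (1.84, 0.0324). On the linear scale *Epor* was 45.8-fold higher (counting interval 7.85 to 1845, on 1 read) and *Tfrc* 1.76-fold higher. Without GFP+ Pdgfrα- replicate 1, and likewise without GFP- Pdgfrα+ replicate 2, 3 were called and *Hbb-b1* and *Hbb-b2* were not (adjusted p in limma 0.0717 and 0.351, and 0.0593 and 0.307). Voom on the reads called 2, *Epor* and *Tfrc*, and *Hbb-b2* also missed the threshold with DESeq2 (adjusted p 0.102), without the mean-variance trend in limma (adjusted p 0.116) and with only the compared populations in the fit (0.0544).

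Over GFP+ Pdgfrα+ cells, 4 of the 9 were called higher in GFP+ Pdgfrα- cells, against 11.1% of all genes. *Epor* was 6.48-fold higher (log2 fold change 1.90, adjusted p in limma 0.00246) and *Tfrc* 2.46-fold higher (1.26, 5.95e-05). *Hbb-b1* was 2.82-fold higher (1.40, adjusted p in limma 0.00308) and *Slc4a1* 2.49-fold higher (adjusted p in limma 0.0112). *Hbb-b2*, with a log2 fold change of 1.57, was not called (adjusted p in limma 0.0684). It was called with the replicate number as a block (0.0129), with edgeR (0.0272) and after rescaling without mitochondrial and globin genes (0.0277). Without GFP+ Pdgfrα- replicate 2 its log2 fold change was 2.48. The summed β-globin pair, tested as 1 value that includes the *Hbb-b1* reads, was called (adjusted p in limma 0.00812). Without GFP+ Pdgfrα- replicate 1, 2 were called and *Slc4a1* (adjusted p in limma 0.136) and *Hbb-b1* (0.0626) were not, and without GFP+ Pdgfrα+ replicate 1 *Slc4a1* was not called (0.0937). Voom called 2, *Epor* and *Tfrc*. After that rescaling 7 of the 9 were called, but many more genes of the whole table passed as well, 5014 against 3848 in either direction. *Slc4a1* also missed the threshold without the mean-variance trend (adjusted p in limma 0.0555) and with only the compared populations in the fit (0.0731).

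The other genes of red cell formation were followed in 8 lists of 106 genes, of which 98 were in the table. Of these, GFP- Pdgfrα- cells had 82 called higher than in each other population and 5 called lower than in each, and 11 were neither. Among all 15880 genes these numbers were 3049 (19.2%), 3487 (22%) and 9344. The count of 82 is in part set by the filter on low counts. *Cldn13*, *Nfe2* and *Trim58*, for example, were at most 0.386, 1.09 and 1.16 outside GFP- Pdgfrα- cells and could pass that filter only through GFP- Pdgfrα- libraries. Among the markers below this holds for *Gp9* and *Gp5*. List medians below are log2 fold changes over GFP- Pdgfrα+, GFP+ Pdgfrα- and GFP+ Pdgfrα+ cells in that order, and those of all genes were −0.17, −0.15 and −0.20.

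Genes of early progenitors were divided. Of 10, *Kit*, *Myb*, *Lyl1* and *Gata2* were higher in GFP- Pdgfrα- cells than in each other population, and *Cd34*, *Meis1* and *Hoxa9* were lower, with list medians of −0.20, 0.41 and −0.50. *Kit*, the stem cell factor receptor that erythroid progenitors carry and erythroblasts lose, was at 347 and 266 in GFP- Pdgfrα- libraries and between 2.14 and 13.2 in the other 6. *Myb*, which keeps progenitors dividing, was at 287 and 245 against 1.34 to 7.89, and *Gata2*, which precedes Gata1 on shared targets, at 18.5 and 19.2 against 0.121 to 3.40. *Cd34*, an antigen of stem and early progenitor cells and also of stromal cells, was at 3.59 and 7.19 against 90.9 to 236, and *Meis1* at 2.73 and 0.825 against 30.2 to 74.4. *Runx1*, *Erg* and *Mycn* fell in neither group. *Erg*, at 1.01 and 12.6 in the GFP- Pdgfrα- libraries, differed most of this list between these replicates.

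Of 14 erythroid transcription factors, 12 were higher in GFP- Pdgfrα- cells than in each other population (13 with voom or edgeR), with list medians of 5.40, 4.91 and 5.41. *Hemgn* was at 621 and 789.9 in GFP- Pdgfrα- libraries against 1.63 to 8.13 in the other 6, and *Ikzf1* at 618 and 616 against 1.64 to 5.32. The partners of Gata1 in its DNA-bound complex, *Lmo2* (252 and 260.2 against 1.24 to 4.50) and *Tal1* (222 and 295 against 0.378 to 3.03), were high as well. *Gfi1b*, which represses progenitor genes, was at 173 and 222 against 0.126 to 2.70. *E2f2*, which acts in the last erythroid divisions, was at 463 and 624 and had a second level in GFP+ Pdgfrα- cells, 88.5 and 80.1, against 1.89 to 17.3 in Pdgfrα+ cells. *Sox6* (204 and 227 against 25.0 to 44.4), *Zbtb7a* (210.4 and 224 against 56.8 to 103) and *Foxo3* (295 and 322 against 173 to 215) were expressed in all populations. *Ldb1* (135 and 156 against 53.5 to 124) and *Cbfa2t3* (30.0 and 35.5 against 3.66 to 55.7) were not higher than in each other population.

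Transcripts of the erythropoietin receptor pathway were divided, and signalling itself was not measured. Of 10 genes, 5 were higher in GFP- Pdgfrα- cells (*Jak2*, *Stat5a*, *Stat5b*, *Bcl2l1* and *Pim1*), *Socs3* was lower, and *Cish*, *Lyn*, *Grb2* and *Fam132b* were neither, with list medians of 1.05, 1.33 and 0.74. *Jak2*, the kinase bound to the receptor, was at 165 and 131 in GFP- Pdgfrα- libraries against 40.5 to 102 in the other 6. *Stat5a* was at 53.0 and 51.1 against 8.19 to 17.1, and *Bcl2l1*, a survival gene, at 26.0 and 36.9 against 7.89 to 13.5. *Socs3*, a feedback inhibitor of cytokine receptors, was at 1.58 and 2.95 against 26.0 to 124. *Cish*, a STAT5 target, was at 12.8 and 13.1 against 7.16 to 27.5. Without GFP+ Pdgfrα+ replicate 2, 3 of the 10 were called higher.

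Of 12 genes of heme synthesis, 11 were higher, with list medians of 4.18, 3.97 and 3.99. The mitochondrial iron importer *Slc25a37* was at 1495 and 1645 in GFP- Pdgfrα- libraries against 18.3 to 27.5 in the other 6. *Cpox* was at 1025 and 1252 against 28.4 to 47.9, and *Fech*, the enzyme that inserts iron, at 585 and 585 against 31.0 to 36.1. The exception was *Alas1*, the housekeeping counterpart of *Alas2*, at 8.76 and 10.7 against 12.5 to 25.1. Of 9 genes of iron uptake and storage, 7 were higher (6 with DESeq2) and *Hfe* was lower, with list medians of 0.91, 1.94 and 0.84. The ferritin genes *Fth1* (956 and 1234 against 157 to 229) and *Ftl1* (868 and 779 against 311 to 486) and the exporter *Slc40a1* (40.9 and 48.9 against 1.58 to 26.3) were among those higher, and *Ireb2* was neither. *Tfr2* was not analysed here.

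All 21 genes of the red cell membrane and cytoskeleton in the table were higher (20 with DESeq2), with list medians of 5.89, 5.62 and 6.08. *Cd24a*, highest in early erythroblasts, was at 3135 and 3073 in GFP- Pdgfrα- libraries against 27.9 to 92.7 in the other 6, *Ermap* at 1545 and 1496 against 2.40 to 25.6, and β-spectrin *Spnb1* at 1131 and 1155 against 5.94 to 28.0. *Rhag* was at 589 and 469 against 0.378 to 4.01. *Ank1*, which anchors spectrin to band 3, was at 767 and 819 and had a second level of 196 and 247 in GFP+ Pdgfrα- libraries, against 4.41 to 18.5 in Pdgfrα+ libraries.

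All 21 late maturation genes in the table were higher (20 with DESeq2), with list medians of 3.58, 3.52 and 3.68. The carbonic anhydrases *Car2* (2129 and 2323 against 5.93 to 22.8) and *Car1* (272 and 249.8 against 0.138 to 2.79) had the steepest contrasts of the 8 with the highest mean. The peroxidase *Gpx1* was at 552 and 715 against 24.3 to 61.1, *Fam46c* at 376 and 542 against 16.5 to 31.8 and *Prdx2* at 340.2 and 378 against 35.5 to 61.3. *Cat* (404 and 399 against 127 to 279.8), *Bnip3l* (292 and 274 against 90.2 to 139) and *Xpo7* (178 and 222 against 89.6 to 123) were expressed in all populations. *Hba-a2*, the remaining globin gene in the table, was at 1709 and 2880.1 against 2.23 to 16.9, and was higher by log2 fold changes of 8.87, 7.22 and 8.39. *Alox15*, the embryonic globin genes *Hba-x*, *Hbb-y*, *Hbb-bh1* and *Hbb-bh2* and the chaperone *Ahsp* were not analysed here.

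**Figure D3:**
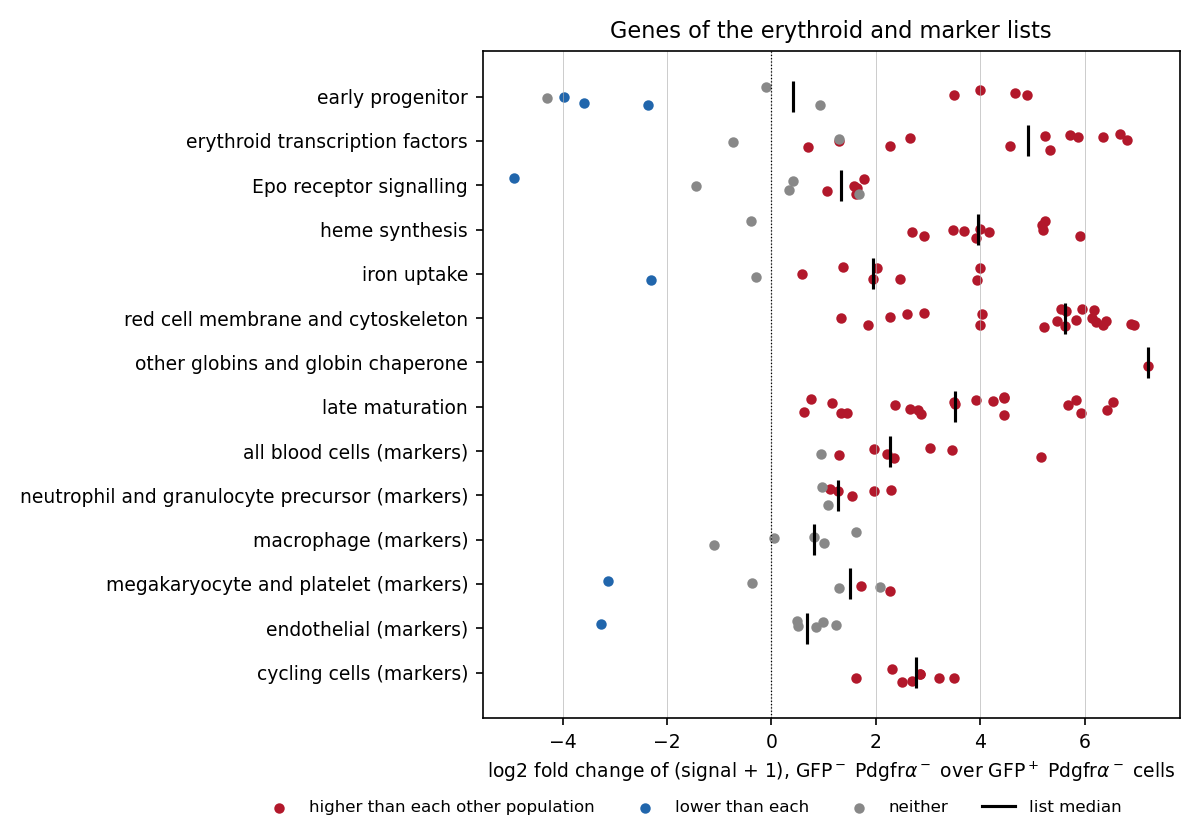
The log2 fold change of (signal + 1) of GFP- Pdgfrα- over GFP+ Pdgfrα- cells for each gene of the 8 erythroid lists and 6 marker lists, with a vertical line for the median of each list. Points are red where the gene was called higher than in each other population, blue where lower than in each and grey otherwise, and the early progenitor list alone among the erythroid lists has 3 blue points.

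Read along the order in which these genes act, GFP- Pdgfrα- cells carried late genes such as *Slc4a1* and the adult globin genes in high amounts. The early end was divided. Of 10 early progenitor genes 4 were higher than in each other population, *Kit* and *Myb* among them, and 3 were lower, *Cd34* and *Meis1* among them. The lower calls are relative to populations that held these transcripts themselves, with *Meis1* at 30.2 to 74.4 in the other 6 libraries. They do not measure the stage of GFP- Pdgfrα- cells. Some markers of other blood cells, given below, were also higher in these cells. The stage of single cells was not measured, and a mixture of stages and single cells with early and late transcripts cannot be told apart. GFP- Pdgfrα- cells also held the transcripts of dividing cells. All 8 cycling genes were higher than in each other population, with a summed signal of 7719.5 and 8764 in GFP- Pdgfrα- libraries against 203 to 955 in the other 6. *Mki67*, a marker of cells in cycle, was at 5385 and 6467 against 106 to 571. The share of reads from mitochondrially encoded genes was 36.9% and 39.1% in GFP- Pdgfrα- libraries and 13.0% to 24.2% in the other 6, and its part in the differences was not tested.

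The 2 GFP- Pdgfrα- libraries differed most in *Hba-a1* and *Hbb-b1* and least in *Gata1* and *Tfrc*. Of the 9 genes, *Hba-a1* had the largest ratio of replicate 2 to replicate 1 in GFP- Pdgfrα- cells, 2.32 (95% counting interval 2.25 to 2.40). It was followed by *Hbb-b1* at 1.75 (1.71 to 1.78), *Alas2* at 1.34 (1.24 to 1.45), *Hbb-b2* at 1.33 (1.30 to 1.36) and *Slc4a1* at 1.24 (1.21 to 1.28). *Klf1* was at 1.13 (1.01 to 1.27), *Tfrc* at 1.04 (1.00 to 1.07), *Gata1* at 1.03 (0.865 to 1.22) and *Epor* at 0.866 (0.751 to 0.998). Over the 6898 genes with at least 100 reads in these libraries, the median ratio was 0.982 and the quartiles 0.856 and 1.14, so that *Alas2*, *Slc4a1* and the globin genes lay above the middle range and the factors and receptors within it. *Kit*, picked here after its values were seen, had a ratio of 0.768 (0.707 to 0.834).

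In GFP+ Pdgfrα- cells the globin genes and *Slc4a1* differed the other way. The ratio of replicate 2 to replicate 1 was 0.263 (0.182 to 0.373) for *Hbb-b2*, 0.478 (0.315 to 0.713) for *Hba-a1*, 0.514 (0.356 to 0.732) for *Slc4a1* and 0.623 (0.495 to 0.781) for *Hbb-b1*. It was 0.943 (0.773 to 1.15) for *Tfrc* and 0.832 (0.454 to 1.51) for *Epor*, and its median over 7767 genes was 1.02. *Alas2*, at 4.98 and 5.79, was not reversed (interval of its ratio 0.607 to 2.25). Replicate 1 of GFP+ Pdgfrα- cells was thus the library with the most globin reads outside GFP- Pdgfrα- cells, 0.0145% against 0.00718% in replicate 2.

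**Figure D4:**
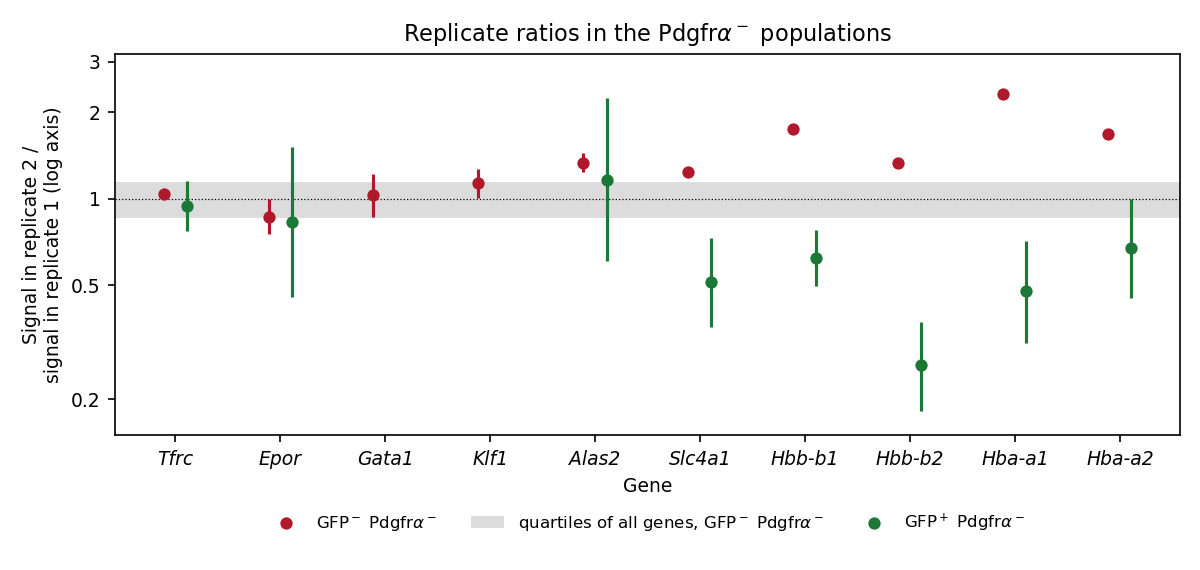
The signal of each erythroid gene, and of *Hba-a2*, in replicate 2 divided by that in replicate 1 (log axis) in GFP- Pdgfrα- (red) and GFP+ Pdgfrα- (green) cells, for genes with at least 20 reads in the 2 libraries, with lines for the 95% counting interval. The grey band spans the quartiles of all genes in GFP- Pdgfrα- cells (0.856 to 1.14), and the globin genes and *Slc4a1* lie above it in GFP- Pdgfrα- and below it in GFP+ Pdgfrα- cells.

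The globin genes come in near-identical pairs, which makes the split of reads within a pair uncertain. Of the distinct 50-base stretches in the coding transcripts, *Hbb-b1* shared 47.9% and *Hbb-b2* 58.3% with the other, and *Hba-a1* shared 68.4% and *Hba-a2* 87.4%. The other 6 genes of the set shared 0 such stretches with any coding transcript. The coding sequences of *Hbb-b1* and *Hbb-b2*, 444 bases each, differ in 1 base, C417T, and those of *Hba-a1* and *Hba-a2*, 429 bases each, in 1 base, C381T, counted from 1 at the A of the start codon. Both lie in the third coding exon, shown here because that base is all that tells the coding sequences of a pair apart, with the differing base in capitals. The exons are at chr7:110975179-110975307 and chr7:110961170-110961298 on the minus strand, and at chr11:32184263-32184391 and chr11:32197080-32197208 on the plus strand of NCBIM37.
*Hbb-b1*: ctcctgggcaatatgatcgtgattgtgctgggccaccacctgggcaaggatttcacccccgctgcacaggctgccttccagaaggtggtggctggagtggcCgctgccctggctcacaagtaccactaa
*Hbb-b2*: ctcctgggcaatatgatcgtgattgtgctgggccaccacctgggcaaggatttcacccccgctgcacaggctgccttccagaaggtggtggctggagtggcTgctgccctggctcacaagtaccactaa
*Hba-a1*: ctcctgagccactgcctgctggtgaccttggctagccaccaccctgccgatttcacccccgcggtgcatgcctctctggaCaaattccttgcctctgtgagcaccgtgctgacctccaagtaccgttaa
*Hba-a2*: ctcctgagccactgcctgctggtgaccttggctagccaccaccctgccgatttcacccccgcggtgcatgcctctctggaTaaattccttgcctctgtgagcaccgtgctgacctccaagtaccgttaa

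Summed over each pair, the contrast between populations remained. The β-globin pair was at 7198 and 11387 in GFP- Pdgfrα-, 91.5 and 42.7 in GFP+ Pdgfrα-, 28.7 and 15.4 in GFP- Pdgfrα+, and 24.9 and 18.4 in GFP+ Pdgfrα+ libraries. The α-globin pair was at 3225 and 6404 in GFP- Pdgfrα-, 36.9 and 21.1 in GFP+ Pdgfrα-, 15.4 and 12.2 in GFP- Pdgfrα+, and 10.5 and 15.5 in GFP+ Pdgfrα+ libraries. For both pairs the GFP+ Pdgfrα- libraries came second and the Pdgfrα+ populations overlapped. *Hbb-b1* made up 60.6% and 66.9% of the reads of its pair in GFP- Pdgfrα- libraries, and *Hba-a1* 47.0% and 55.0%. Per kb, the ratio of β-globin to α-globin was 1.84 and 1.48 in these libraries and 0.992 to 2.08 in the other 6. With the reads of each pair summed before the test, all 9 genes, *Hbb-b1* and *Hbb-b2* sharing 1 value, stayed called in GFP- Pdgfrα- cells over each other population, and 6 were called in GFP+ Pdgfrα- cells over each Pdgfrα+ population.

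All 9 genes were highest in GFP- Pdgfrα- cells. Of these, 8 had an entry among the RefSeq promoters (GRCm38.p6), which were searched over 250 bases before the start on both strands. *Hbb-b1* and *Hbb-b2* are listed there as *Hbb-bs* and *Hbb-bt*, which was checked by matching the bases to the NCBIM37 genome at the genes measured here. The bases of the *Hba-a1* entry had no single exact match there, and it was taken by its symbol. No entry was used for *Slc4a1*. Letters that GATA factors are known to bind (AGATAA, the variant AGATAG, the variant TGATAA or the variant TGATAG) were present for 5 of the 8 genes, *Epor*, *Klf1*, *Alas2*, *Hbb-b1* and *Hba-a1*, against 26.5% of 32851 promoters. The letters CCNCNCCC, which Klf1 is known to bind, were present for 6 of the 8, *Tfrc*, *Epor*, *Gata1*, *Alas2*, *Hbb-b1* and *Hbb-b2*, against 45.9%, and both for 3 of the 8, *Epor*, *Alas2* and *Hbb-b1*, against 8.19%. A match describes the sequence and not a bound site. The searched bases are shown for 4 of these genes, chosen for a GATA match, with the searched letters of either strand in capitals. Bases of annotated exons are left out, among them the CCNCNCCC matches of *Alas2* and *Hbb-b1*. In GRCm38.p6 they are at chr9:21963577-21963826 on the minus strand for *Epor*, chr8:84901732-84901927 on the plus strand for *Klf1*, chrX:150547167-150547374 on the plus strand for *Alas2* and chr7:103828097-103828178 on the minus strand for *Hbb-b1*.
*Epor*: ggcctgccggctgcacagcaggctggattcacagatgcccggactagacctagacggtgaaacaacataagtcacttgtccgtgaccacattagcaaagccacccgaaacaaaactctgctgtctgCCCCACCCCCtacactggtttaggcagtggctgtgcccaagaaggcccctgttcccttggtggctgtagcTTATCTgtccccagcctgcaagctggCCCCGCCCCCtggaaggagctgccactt
*Klf1*: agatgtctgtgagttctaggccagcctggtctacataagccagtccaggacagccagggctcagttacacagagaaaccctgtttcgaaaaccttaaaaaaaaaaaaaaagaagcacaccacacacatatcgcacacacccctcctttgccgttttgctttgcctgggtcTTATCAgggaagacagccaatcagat
*Alas2*: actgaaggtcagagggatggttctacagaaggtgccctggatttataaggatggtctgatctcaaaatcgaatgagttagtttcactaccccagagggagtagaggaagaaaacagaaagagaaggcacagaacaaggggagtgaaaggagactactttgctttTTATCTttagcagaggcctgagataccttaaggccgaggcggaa
*Hbb-b1*: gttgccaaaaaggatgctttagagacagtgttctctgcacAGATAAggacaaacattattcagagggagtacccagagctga

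Some markers of other blood cells were also above the other populations in GFP- Pdgfrα- cells. Of 8 genes of all blood cells, 7 passed as higher than in each other population (6 with edgeR or DESeq2), with a summed signal of 212 and 189.6 against 5.04 to 11.9 in the other 6 libraries. *Rac2* made up most of it (126 and 103 against 0.882 to 2.55), and *Ptprc*, which encodes the gated antigen CD45, was at 11.3 and 6.72 against 0.126 to 1.58. Of 7 neutrophil and granulocyte precursor genes in the table, 5 were called higher (*Ngp*, *S100a9*, *Mpo*, *Ltf* and *Elane*), with a sum of 83.2 and 79.4 against 4.83 to 27.4, led by *Lyz2* (20.8 and 25.8 against 1.52 to 16.5). That count was 2 without GFP- Pdgfrα- or GFP+ Pdgfrα- replicate 1, 3 without replicate 2 of either, 4 with edgeR, 1 with DESeq2 or a pseudocount of 0.1, and 6 with voom or at an unadjusted p under 0.05. Of 6 megakaryocyte and platelet genes, *Gp9* (4.45 and 5.54 against 0.129 to 0.630) and *Gp5* were higher (a count of 1 with DESeq2), *Itgb3* was lower (11.1 and 1.06 against 41.9 to 144), and *Gp1bb* had 0 reads in both GFP- Pdgfrα- libraries, with list medians of 1.12, 1.51 and 0.67. The sum, 28.7 and 23.3 against 44.9 to 149.8, was dominated by *Itgb3* in the other 6 libraries, and *Gp1ba* was at 8.19 and 7.66 against 0.630 to 7.04.

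For macrophages, 0 of 5 genes were higher than in all 3 other populations by limma, voom, edgeR or DESeq2 or at an unadjusted p under 0.05, with a sum of 14.8 and 18.0 against 8.42 to 18.0, and *Csf1r*, with the highest mean in GFP- Pdgfrα- cells, was at 6.18 and 1.53. *Mrc1* was called higher over GFP+ Pdgfrα- cells alone (log2 fold change 1.61, adjusted p in limma 0.0327). For endothelial cells, whose antigen CD31 was gated out, 0 of 6 were higher than in all 3 by these tools or at an unadjusted p under 0.05 and *Tek* was lower than in all 3, with a sum of 31.6 and 121 against 45.9 to 93.4, led by *Cdh5* at 11.6 and 48.0. *Pecam1*, which encodes CD31, was at 12.8 and 27.9 against 3.91 to 18.1 and was called higher over GFP- Pdgfrα+ (adjusted p in limma 0.00988) and GFP+ Pdgfrα+ cells (0.0425). *Emcn* and *Tie1* were called higher over GFP- Pdgfrα+ cells alone (adjusted p in limma 0.0171 and 0.0281). Without GFP- Pdgfrα- replicate 1, 2 endothelial genes were called higher than in all 3, and 1 without GFP+ Pdgfrα- replicate 2. Of 2 B cell genes, 0 were higher than in all 3 by any of these and *Ebf1*, which stromal cells also express, was lower at 6.75 and 10.5 against 57.2 to 331. The B cell sum was 7.47 and 13.9 against 60.7 to 332, and the 8 mast cell and basophil genes were not analysed here. The part of these other cells in the differences of the erythroid genes was not tested.

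Among the genes outside the lists whose pattern over the 8 libraries was most like the mean of the 9 were *Plagl2*, *Anp32b*, *Prpf4b*, *Cbx5*, *Rrm1*, *Dek* and *Npat*, with Pearson r from 0.996 to 0.999 among 8903 genes with a mean signal of at least 10. *Plagl2* was at 361 ± 1.22 in GFP- Pdgfrα-, 61.3 ± 6.50 in GFP+ Pdgfrα-, 43.6 ± 1.95 in GFP- Pdgfrα+ and 44.9 ± 2.31 in GFP+ Pdgfrα+ cells (SD, n = 2). *Rrm1*, a subunit of ribonucleotide reductase, was at 516 ± 35.9, 53.2 ± 1.18, 32.3 ± 3.73 and 35.4 ± 3.58 in the same order. As 917 of the 8903 genes had r of at least 0.95, and the libraries fall into 1 high and 3 low populations, this likeness describes a shape that many genes share.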

How the data were processed

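RNA was measured in 8 libraries of 4 sorted populations, amplified as cDNA (Ovation). Per the submitters' processing notes, reads were trimmed with cutadapt, quantified with RSEM 1.17 against NCBIM37, checked with Picard and normalized with limma. The deposited table holds normalized signal for 15880 genes, in which 1645 genes do not pass the stated cpm filter. Reads were recovered from the signal: 100% of values were whole reads within 0.01 reads, 3221217 to 5302762 per library, and the value of 3 reads was 0.825 to 1.04. Each comparison was tested with limma 3.58.1 (lmFit, eBayes with trend, R 4.3.3) on log2(signal + 1) over all 4 populations with 4 residual degrees of freedom, with Benjamini-Hochberg adjusted p at most 0.05 over 15880 genes. This test was chosen for deposited normalized signal among tests planned for several possible units. On simulated reads it recovered 23 of 50 genes changed 2-fold and 50 of 50 changed 64-fold, with 12 false calls. Far fewer genes changed there than were called here, so the simulation does not probe a shift in composition.

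As alternatives, edgeR 4.0.16, DESeq2 1.42.0 and voom were run on the recovered reads. Between GFP+ Pdgfrα- and GFP+ Pdgfrα+ cells they called 3586, 2874 and 3882 genes in either direction, against 3848 in limma. Other alternatives were the pseudocount (0.1), a filter on low values, quantile normalization, median centring, rescaling without mitochondrial and globin genes, library weights, no trend, only the compared populations, summed globin pairs, a replicate block and leaving out libraries. The design text says that each independent set came from pooled littermates, so replicate numbers were taken to mark a shared pool. Correlations of same-numbered deviations were 0.004 to 0.081. Counting intervals are exact conditional binomial intervals at 95%.

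The members and lists were chosen with earlier results of these data known. Named genes were all members, and of each erythroid list up to 8, and of each marker list up to 4, with the highest mean signal, and some genes that this rule names are not reported here. Other list genes, and those of counts of 5 or fewer, were named after their values were seen. Of 15880 identifiers, 15849 matched the NCBIM37 annotation, whose transcript lengths gave the values per kb. Tables were computed, and figures drawn, in Python 3.11.15 with pandas 2.3.3, numpy 2.4.6, scipy 1.17.1 and matplotlib 3.10.9.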

Additional observations from a re-analysis of the deposited data

Results flagged for a closer look

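For all 9 genes, a difference between groups met the rule for a closer look: the GFP effect differed between Pdgfrα+ and Pdgfrα- cells by a test of the difference itself, an interaction in limma. On the log2 scale the difference was 4.53 for *Tfrc*, 5.005 for *Gata1*, 5.84 for *Klf1*, 4.44 for *Epor*, 5.50 for *Alas2*, 7.53 for *Slc4a1*, 7.03 for *Hbb-b1*, 7.48 for *Hbb-b2* and 6.86 for *Hba-a1*. For *Gata1* the call was lost with edgeR (adjusted p 0.934) and DESeq2 (adjusted p 0.0542). GFP- Pdgfrα- cells were high and the other 3 populations low, and which cells carried the transcripts was not tested.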

How the results depend on the processing

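The log2 fold changes of single genes had 1049 alternatives. In the comparisons of GFP+ Pdgfrα- with Pdgfrα+ cells these cover only *Tfrc*, *Epor*, *Slc4a1*, *Hbb-b1* and *Hbb-b2*. Of the 1049, 987 kept their call or, where there was no adjusted p, moved by at most the standard error in limma. The call was lost in 19 and gained in 5, 38 moved further and 0 reversed. The gained calls include that of the summed β-globin pair. All 9 genes stayed called in GFP- Pdgfrα- cells over each other population under every alternative with a test, and 0 were called between the Pdgfrα+ populations. The count in GFP+ Pdgfrα- over GFP+ Pdgfrα+ cells, 4, was 7 after rescaling without mitochondrial and globin genes, 2 with voom and 2 to 5 without 1 library. The count over GFP- Pdgfrα+ cells, 5, was 2 with voom and 3 to 6 without 1 library. Over GFP+ Pdgfrα+ cells, calls among all genes in either direction were 3848 in limma, 5014 after the rescaling and 3882 with voom. The cause was not tested. With the replicate number as a block, 5 were called over GFP+ Pdgfrα+ cells, *Hbb-b2* being added, the pairing changed no other call among the genes so covered, and the counts of the other comparisons stayed as they were. A lone library was assumed to vary like the other groups, and leaving out all libraries of replicate 1 or 2 gave a value and no test. Rescaling moved the median of all genes in GFP+ Pdgfrα- over GFP+ Pdgfrα+ cells to 0.30, and median centring moved that in GFP- Pdgfrα- over GFP- Pdgfrα+ cells from −0.17 to 0.28. The alternatives for the list counts were chosen after seeing the data. Depth limits *Gata1* and *Klf1* outside GFP- Pdgfrα- cells and *Epor* in Pdgfrα+ cells, and 3 reads were a signal of 0.850 to 1.04 in the other 6 libraries.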
